A study of Mus musculus with 6 samples.

Results

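The expression of 38 macrophage, antigen presentation and lymphoid genes was compared in back skin of Get1 +/+ and Get1 -/- mouse embryos. The genes were taken by symbol from the array's annotation, and each was represented by its brightest probe set, the one with the highest mean log2 signal over the 6 arrays. All 38 were on the array, out of 18193 genes with a probe set that names 1 gene. Of these, 32 passed the filter on low signal (a mean log2 signal at or above the median of all probe sets, a signal of 137) and were tested among 11387 genes, and 6 did not. The samples were 1 array per mouse from 3 Get1 +/+ and 3 Get1 -/- animals at e18.5, all from the same region of back skin, and no treatment was given in the labels. Get1 is the grainyhead-like transcription factor now called Grhl3. How the allele was made and on which strain is not given in the sources used here.

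Skin before birth holds resident macrophages that enter from yolk sac and fetal liver, and precursors of Langerhans cells, the dendritic cells of the epidermis. Macrophages depend on the colony stimulating factor receptor Csf1r and on the transcription factor PU.1 (Spi1). They clear dying cells with scavenger receptors and complement C1q. They also signal through Fc receptors and other surface receptors, some of which use the adaptors Fcer1g or Tyrobp. Antigen presenting cells load peptides on MHC class II molecules, whose invariant chain Cd74 is cut by cathepsin S (Ctss). T cells carry the Cd3 complex, and in mouse epidermis the first of them arrive in fetal life.

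Values are MAS5 signals in arbitrary units on arrays scaled to one trimmed mean, and the arrays' number limits the precision. The probe set of Grhl3 read 478, 934 and 670 in Get1 +/+ replicates 1 to 3 and 246, 413 and 380 in Get1 -/- replicates 1 to 3, without overlap (adjusted p = 0.497, limma). A probe set outside the deleted part would check nothing. The skin markers Krt14 (16173 to 19929 in Get1 +/+, 14882 to 18352 in Get1 -/-) and Col1a1 (25804 to 31868 and 23083 to 30454) were high on every array, as was Acta1 of skeletal muscle (26629 to 32111 and 24716 to 33234). Over all genes tested, 5 passed the threshold of an adjusted p under 0.05. The arrays were also divided by rank on the control probe set for the 3' end of beta-actin, the 3 highest against the 3 lowest. It read 30902 to 31441 on Get1 +/+ replicates 1 and 2 and Get1 -/- replicate 1, and 22558 to 26889 on the other arrays. Get1 -/- replicate 3, at 26889, lay between the high set and the rest of the low set (22558 and 23312), so its place rests on the rank cut. Nothing in the labels ties these sets to a batch, so differences within each set are given too.

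Most of the leukocyte genes read higher in Get1 -/- skin, by modest amounts, and none passed the test alone. Of the 32 tested, 27 had a higher and 5 a lower mean log2 signal in Get1 -/- skin, where 51.3% of all genes tested were higher. Their median log2 change was 0.39, a fold of 1.31, against 0.0076 for all genes. The changes ran from -0.68 for the chemokine gene Ccl6 to 0.99 for the pan-leukocyte gene Ptprc. In whole skin, more cells of a type and more RNA per cell cannot be told apart.

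With limma, 0 of the 32 passed an adjusted p under 0.05, which 0.0439% of all genes did. The smallest adjusted p was 0.30, for Ptprc. At an unadjusted p under 0.05 there were 13 of 32, all higher in Get1 -/- skin, and 0 lower. Over all genes 8.18% reached that level, 3.89% higher and 4.29% lower. The genotypes did not overlap in 12 of the 32, that is 11 higher and 1 lower in Get1 -/- skin, against 12% of all genes in either direction, 5.2% higher and 6.78% lower. These genes were put together with results of the same arrays known, and many of them are made by the same cells, so the counts describe them and are not independent evidence.

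**Figure D1:**
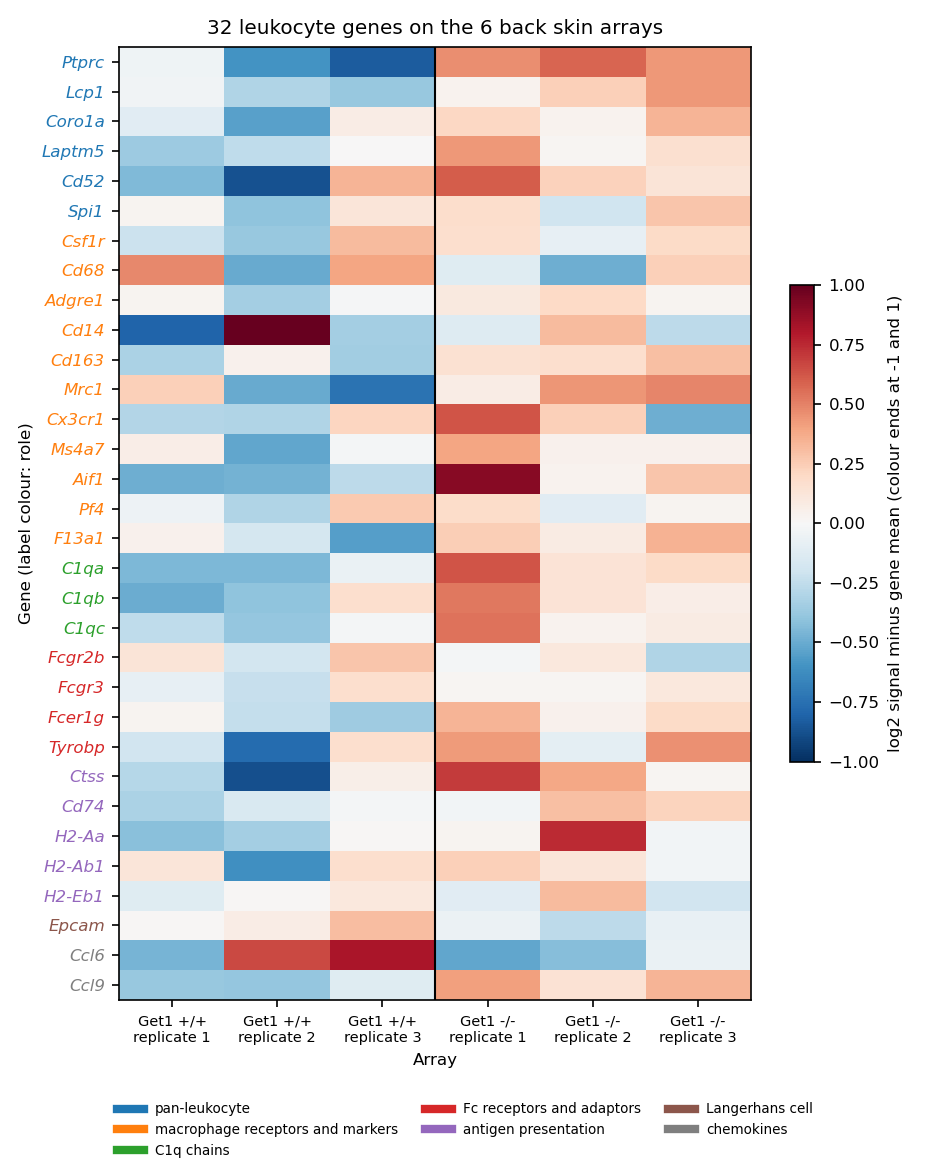
Heat map of the 32 tested genes (rows, grouped by role) on the 6 arrays (columns). Colour shows log2 signal minus the gene's mean over the arrays, and the colour scale ends at -1 and 1. Most genes lie below their mean in Get1 +/+ replicate 2 and above it in Get1 -/- replicate 1.

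The arrays of a genotype were not alike. Averaged over the 32 genes, the deviation of log2 signal from each gene's own mean was -0.17, -0.30 and -0.0033 in Get1 +/+ replicates 1 to 3 and 0.24, 0.11 and 0.12 in Get1 -/- replicates 1 to 3. Get1 +/+ replicate 2 was the lowest of all arrays for 14 genes and Get1 -/- replicate 1 the highest for 12. Get1 +/+ replicate 3 stood between the genotypes. It was the highest Get1 +/+ array for 22 genes and the lowest for 6, and it lay above the lowest Get1 -/- array for 18. The 6 genes with their lowest Get1 +/+ value there were Ptprc, Lcp1, Cd163, Mrc1, F13a1 and Fcer1g.

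Genes listed as pan-leukocyte included Ptprc, the tested gene of the group with the largest log2 change. Several are shared by most white blood cells, whereas others, such as Spi1 and Itgam, are carried by some kinds only. All 6 tested genes read higher in Get1 -/- skin, by 0.44 on the log2 scale at the median, and 3 reached an unadjusted p under 0.05. Ptprc encodes CD45, the membrane phosphatase that defines leukocytes. Its signal was 553, 376 and 319 on the Get1 +/+ arrays and 788, 851 and 769 on the Get1 -/- arrays. Every Get1 -/- value lay above every Get1 +/+ value, and the log2 change was 0.99 ± 0.21 (SE, 95% interval 0.50 to 1.47, adjusted p = 0.30, limma). Without Get1 +/+ replicate 1, the nearest of the Get1 +/+ arrays, the change was 1.21 and passed (adjusted p = 0.0314), in a comparison in which 122 of all genes passed against 5 with every array.

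Lcp1, which encodes the actin-bundling protein L-plastin, read 1060, 878 and 835 in Get1 +/+ and 1110, 1282 and 1466 in Get1 -/- skin. The genotypes did not overlap, the nearest pair being replicate 1 of each, and the log2 change was 0.47 ± 0.17. Its other kept probe set gave 0.45 and did not overlap either. Laptm5, a lysosomal membrane protein of blood cells, read 1179, 1269 and 1522 against 1535, 1696 and 2052 in rising order, a log2 change of 0.41 ± 0.17. Its probe sets disagreed, since the 3 other kept ones changed by 0.073, -0.35 and -0.58, and the mean of all 4 gave -0.11. The one at -0.35 was lower in Get1 -/- skin without overlap. The direction for Laptm5 therefore rests on its brightest probe set.

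The remaining pan-leukocyte genes overlapped between genotypes. Coro1a, an actin regulator of leukocytes, read 835 ± 174 (SD, n = 3) in Get1 +/+ and 1082 ± 114 in Get1 -/- skin, and its second kept probe set gave a log2 change of 0.49 without overlap. Cd52, a small surface glycoprotein, read 307, 228 and 529 against 635, 489 and 458, so Get1 +/+ replicate 3 alone reached the Get1 -/- range. Spi1 differed least, with a log2 change of 0.17 ± 0.23. Without Get1 +/+ replicate 2 the change of Coro1a dropped from 0.39 to 0.22, that of Cd52 from 0.65 to 0.37 and that of Spi1 to 0.013. The integrin chains Itgam (80.3 ± 21.7 and 70.2 ± 16.5) and Itgb2 (99.2 ± 26.0 and 149 ± 50.6) lay below the filter and overlapped.

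Macrophage receptors and markers were uneven. Of 11 genes 9 read higher in Get1 -/- skin and 2 lower, by 0.25 at the median, and 4 reached an unadjusted p under 0.05. Those 4 were Aif1, Mrc1, F13a1 and Cd163. Without Get1 +/+ replicate 2 the median was 0.16, and without Get1 +/+ replicate 3 or Get1 -/- replicate 3 it was 0.35 and 0.37.

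Aif1, the calcium-binding protein also called Iba1, read 167, 169 and 195 in Get1 +/+ and 441, 240 and 283 in Get1 -/- skin. The genotypes did not overlap, and Get1 -/- replicate 1 stood well above the rest. The log2 change was 0.82 ± 0.26 (95% interval 0.23 to 1.4, adjusted p = 0.561, limma) and 0.56 without that array.

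Mrc1, Cd163 and F13a1 are genes of tissue-resident macrophages, namely the mannose receptor, the haemoglobin scavenger receptor and the coagulation factor XIII A chain. Mrc1 read 3440, 2051 and 1743 in Get1 +/+ and 3076, 3960 and 4085 in Get1 -/- skin, so Get1 +/+ replicate 1 exceeded Get1 -/- replicate 1 and the genotypes overlapped. Its log2 change was 0.67 ± 0.24 (adjusted p = 0.576). Cd163 read 460, 589 and 450 against 639, 645 and 708 (0.42 ± 0.17), and F13a1 read 5253, 4512 and 3462 against 6038, 5395 and 6474 (0.45 ± 0.17). Neither of these overlapped.

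The receptor on which macrophages depend differed little. Csf1r read 3565, 3184 and 5157 in Get1 +/+ and 4644, 3904 and 4711 in Get1 -/- skin, and the highest value of all came from Get1 +/+ replicate 3. The log2 change was 0.18 ± 0.19, with a 95% interval from -0.24 to 0.61, and the other kept probe sets gave 0.16 and 0.038. Without Get1 +/+ replicate 2 it was 0.038, and without Get1 +/+ replicate 3 it was 0.39. Pf4, a chemokine of platelets and some macrophages, changed by 0.061 ± 0.17 and turned negative without Get1 +/+ replicate 2 or Get1 -/- replicate 1. Adgre1, which encodes the macrophage antigen F4/80, read 492 to 632 in Get1 +/+ and 633 to 713 in Get1 -/- skin, separated by the last digit printed, with a log2 change of 0.22 ± 0.17. Ms4a7 (0.32 ± 0.21) and the fractalkine receptor gene Cx3cr1 (0.25 ± 0.33) overlapped. Without Get1 +/+ replicate 2 the change was 0.10 for Adgre1 and 0.14 for Ms4a7, and without Get1 -/- replicate 1 it was 0.0032 for Cx3cr1.

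Cd68 and Cd14 were the 2 macrophage genes with a lower mean in Get1 -/- skin. Cd68, a lysosomal glycoprotein, read 728, 366 and 685 against 478, 372 and 613, a log2 change of -0.25 ± 0.29. Cd14, the co-receptor for lipopolysaccharide, read 127, 515 and 175 against 203, 275 and 184. Get1 +/+ replicate 2 alone was high, and the log2 change of -0.05 ± 0.46 became 0.54 without it.

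**Figure D2:**
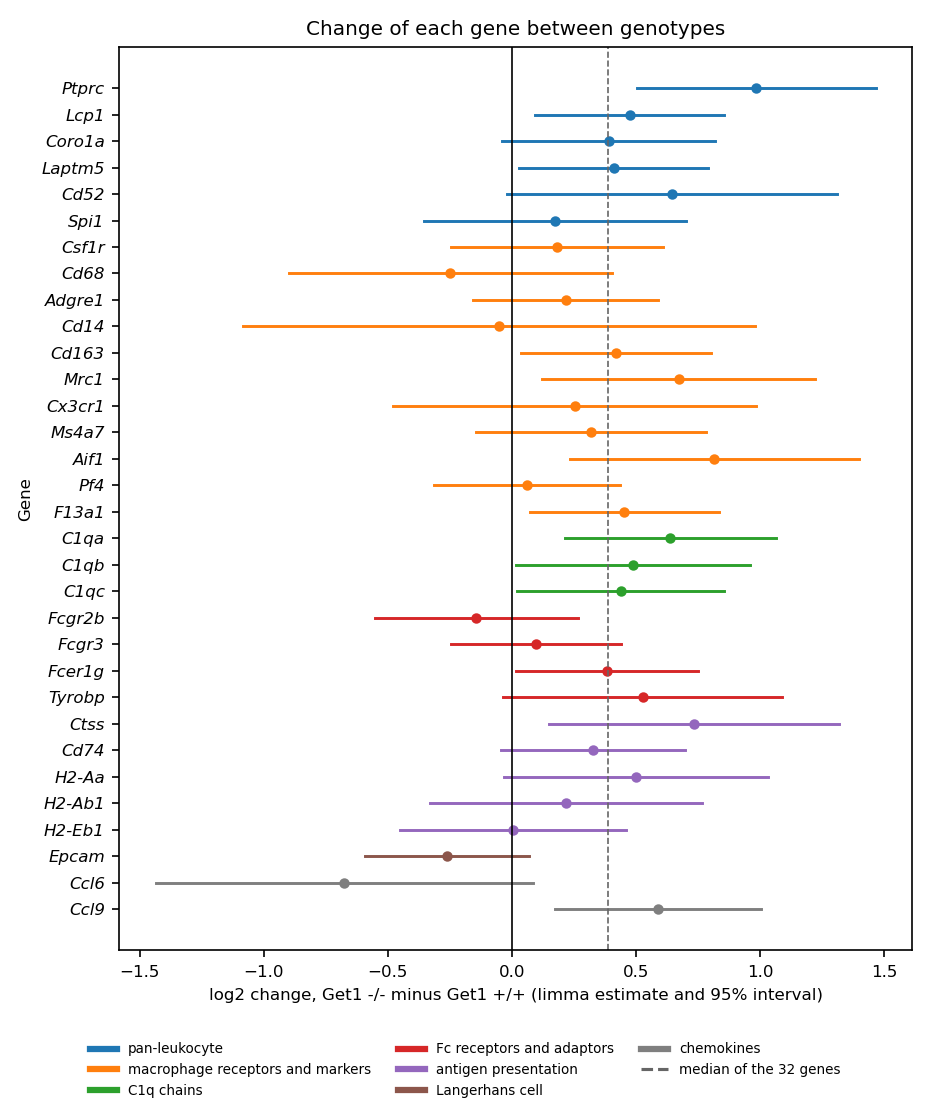
Log2 change between genotypes (Get1 -/- minus Get1 +/+, horizontal axis) of the 32 tested genes, with points for the limma estimate and lines for its 95% interval. The dashed line marks their median of 0.39, and 13 intervals lie wholly above 0.

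The 3 chains of complement C1q, which macrophages make and which tag dying cells for removal, each had a higher mean in Get1 -/- skin, and with limma 0 passed after adjustment and 3 had an unadjusted p under 0.05. C1qa read 908, 909 and 1185 in Get1 +/+ and 1920, 1360 and 1415 in Get1 -/- skin, without overlap (log2 change 0.64 ± 0.19, adjusted p = 0.502, limma). C1qc read 1113, 1018 and 1315 against 1943, 1361 and 1404, also without overlap (0.44 ± 0.19). C1qb read 1310, 1396 and 2080 against 2669, 2035 and 1933, where Get1 +/+ replicate 3 entered the Get1 -/- range (0.49 ± 0.21). On all of the 3 probe sets Get1 -/- replicate 1 was highest, and the other kept C1qb probe sets gave 0.65 and 0.41. Without that array the changes were 0.48 for C1qa, 0.35 for C1qb and 0.28 for C1qc, and of the 3 only C1qa kept an unadjusted p under 0.05. C1qa kept an unadjusted p under 0.05 with each array left out in turn, as did Ptprc and Ccl9, and no other tested gene of the group did.

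The C1q genes lie close to Grhl3, 26 to 28 protein-coding genes away in the RefSeq order (GRCm38.p6), and Cd52 and Laptm5 lie 34 and 90 genes away. Among 125 tested genes within 100 on either side, these 5 included, 46 were higher and 79 lower in Get1 -/- skin. The genotypes did not overlap in 21.6%, against 12% of all genes. Of the 27 genes without overlap 7 were higher and 20 lower, where over all genes 5.2% were higher and 6.78% lower without overlap. Sequence around a targeted gene travels with it in crosses, and whether that bears on these 5 genes was not tested.

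Promoter windows, the 250 bases before the start of transcription, were found in RefSeq (GRCm38.p6) for 27 of the 38 genes. They were searched on both strands for GAGGAAGT, a core of sites that PU.1 binds, and for ATTGG, the Y box of class II promoters (CCAAT on the other strand). These motifs do not overlap one another in letters. GAGGAAGT was in the windows of 2 of 27 genes, Pf4 and C1qc, against 2.44% of all 32851 windows, and ATTGG was in 9 of 27, against 33.8%. Some genes had several windows and were counted if any of them held the motif, whereas the shares are per window. The windows of C1qb and C1qc are shown because the genes are neighbours with similar changes while only 1 holds an exact match. The C1qb window holds a stretch that differs from the match in C1qc by 1 letter. Near matches were not counted, so a window without a match may still hold a PU.1 site. C1qb lies at chr4:136886201-136886450 and C1qc at chr4:136892915-136893164, both on the minus strand. Capitals mark the GAGGAAGT match, which is on the strand opposite to the gene and starts 195 bases before the start of C1qc.
C1qb: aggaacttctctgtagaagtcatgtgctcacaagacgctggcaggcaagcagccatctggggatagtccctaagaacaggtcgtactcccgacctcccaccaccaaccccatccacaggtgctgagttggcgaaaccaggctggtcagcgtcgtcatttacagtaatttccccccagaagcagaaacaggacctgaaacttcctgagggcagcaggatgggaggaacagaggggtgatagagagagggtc
C1qc: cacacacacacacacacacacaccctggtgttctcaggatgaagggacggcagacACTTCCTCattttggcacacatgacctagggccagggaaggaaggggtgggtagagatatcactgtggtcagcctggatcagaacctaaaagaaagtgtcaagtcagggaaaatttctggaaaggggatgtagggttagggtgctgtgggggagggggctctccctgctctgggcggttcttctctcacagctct

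Fc receptors and adaptor chains were uneven. The adaptor chains read higher in Get1 -/- skin. Fcer1g read 1361, 1131 and 1043 in Get1 +/+ and 1691, 1377 and 1531 in Get1 -/- skin, without overlap and by 0.38 ± 0.16 on the log2 scale. Tyrobp, also called DAP12, read 1625, 1090 and 2085 against 2494, 1738 and 2551, with overlap and a log2 change of 0.53 ± 0.25, which was 0.28 without Get1 +/+ replicate 2. The Fc receptors were nearer to 0. Fcgr3, an activating receptor for IgG, changed by 0.097 ± 0.15. Fcgr2b, the inhibitory one, changed by -0.14 ± 0.18 on its brightest probe set (941 ± 148 and 850 ± 120). Its 3 other kept probe sets gave 0.45, 0.53 and 0.13, the first pair without overlap, and the mean of its kept probe sets gave 0.24, so its direction depended on the probe set.

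Of the antigen presentation genes all 5 had a higher mean in Get1 -/- skin (median log2 change 0.33), 0 separated the genotypes, and only Ctss reached an unadjusted p under 0.05. Ctss read 1008, 666 and 1282 in Get1 +/+ and 1997, 1602 and 1242 in Get1 -/- skin. Get1 +/+ replicate 3 lay just above Get1 -/- replicate 3, and the log2 change was 0.74 ± 0.26 (95% interval 0.15 to 1.32, adjusted p = 0.567, limma), or 0.48 without Get1 +/+ replicate 2. Cd74 read 586, 656 and 722 against 715, 900 and 852, where 1 Get1 +/+ value passed the lowest Get1 -/- value, a change of 0.33 ± 0.17.

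The class II chains differed among themselves. H2-Aa, an alpha chain, read 410, 435 and 553 against 559, 923 and 540, and its change of 0.50 ± 0.24 dropped to 0.25 without Get1 -/- replicate 2. Its other kept probe sets gave 0.73, without overlap, and 0.27. H2-Ab1, its beta chain partner, read 337, 202 and 347 against 365, 336 and 303 (0.22 ± 0.24). H2-Eb1 was at 320 ± 24.3 in Get1 +/+ and 324 ± 63.7 in Get1 -/- skin, a log2 change of 0.0044 ± 0.20 with a 95% interval from -0.45 to 0.46.

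The windows of H2-Aa and H2-Eb1 are shown because both carry the Y box while their changes stood at the upper and lower end of the class II chains. H2-Aa lies at chr17:34287824-34288073 on the minus strand and H2-Eb1 at chr17:34305617-34305866 on the plus strand (GRCm38.p6). Capitals mark ATTGG, which starts 48 bases before the start of H2-Aa and 59 bases before that of H2-Eb1, and in H2-Eb1 also a CCAAT that starts 35 bases before it.
H2-Aa: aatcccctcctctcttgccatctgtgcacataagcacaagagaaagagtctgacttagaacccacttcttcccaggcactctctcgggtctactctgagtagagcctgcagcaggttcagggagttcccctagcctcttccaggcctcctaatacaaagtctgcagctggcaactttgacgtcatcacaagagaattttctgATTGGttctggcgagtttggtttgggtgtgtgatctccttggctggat
H2-Eb1: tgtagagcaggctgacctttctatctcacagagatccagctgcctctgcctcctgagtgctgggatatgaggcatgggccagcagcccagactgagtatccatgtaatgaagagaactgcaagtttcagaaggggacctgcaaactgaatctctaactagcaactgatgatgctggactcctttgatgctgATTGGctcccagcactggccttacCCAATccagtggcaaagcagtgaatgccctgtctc

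Langerhans and T cell genes gave little to compare. Cd207, the langerin gene that defines mature Langerhans cells, read 8.75 to 17.2 over all 6 arrays, far below the filter. Epcam, carried by Langerhans cells and by many epithelial cells, read 2013, 2108 and 2472 in Get1 +/+ and 1922, 1667 and 1896 in Get1 -/- skin. It was the only tested gene of the group to separate the genotypes downward (-0.26 ± 0.15, adjusted p = 0.665), and its other kept probe set changed by -0.0041. The Cd3 complex chains Cd3e (15.1 to 97.6) and Cd3g (36.8 to 164) lay below the filter on average. Cd3g read 36.8, 44.4 and 119 against 113, 164 and 95.4, with overlap.

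The chemokines went different ways. Ccl9 read 245, 244 and 293 in Get1 +/+ and 422, 351 and 402 in Get1 -/- skin, without overlap and with a log2 change of 0.59 ± 0.19 (adjusted p = 0.555, limma). Its second kept probe set changed by 0.10. Ccl6, a chemokine of the same gene cluster that also attracts myeloid cells, read 164, 359 and 399 against 158, 169 and 216. Here 2 of 3 Get1 +/+ arrays were above all others, and the change was -0.68 ± 0.34 (adjusted p = 0.636). Ccl2, the ligand that recruits monocytes, was below the filter at 118 ± 77.0 and 101 ± 50.5.

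**Figure D3:**
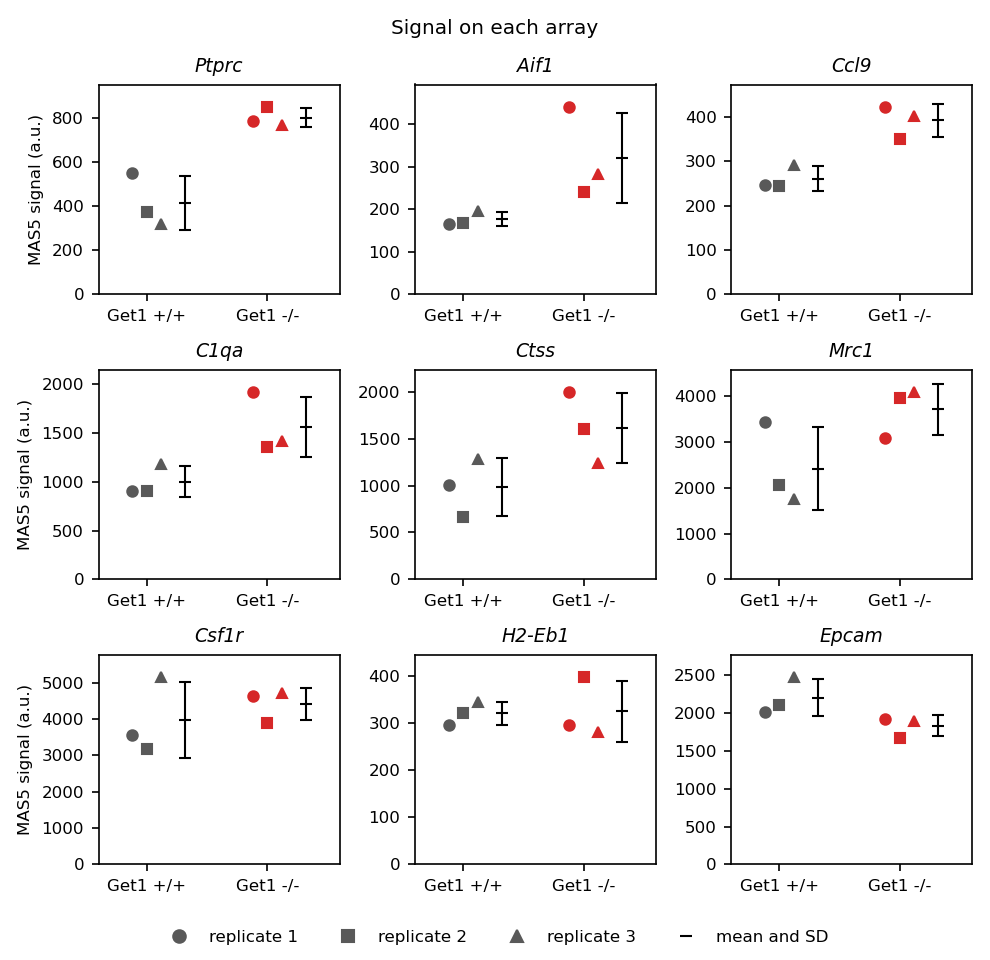
MAS5 signal (vertical axes, arbitrary units, from 0) of 9 genes on each array, with symbols for the replicate number and bars for the mean and SD of 3 arrays. Ptprc, Aif1, Ccl9, C1qa and Epcam separate the genotypes, whereas Ctss, Mrc1, Csf1r and H2-Eb1 overlap.

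The size of the difference depended on which arrays were set against each other. Within the arrays of high actin the 32 genes differed by 0.43 at the median, and within those of low actin by 0.078, against 0.029 and -0.070 over all genes. The difference was larger on the first set for 23 genes. It was above 0 on both sets for 18 genes, below 0 on both for 4, above 0 only on the first for 9 and only on the second for 1.

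Genes went different ways in this respect. C1qa differed by 1.08 and 0.23 on the high and low sets, C1qb by 0.98 and -0.07, C1qc by 0.87 and 0.073, Ctss by 1.29 and 0.14, Tyrobp by 0.91 and 0.014 and Cd52 by 1.26 and -0.16. The other way round, Ptprc differed by 0.79 and 1.34, Mrc1 by 0.21 and 1.21, Lcp1 by 0.20 and 0.72, F13a1 by 0.31 and 0.77 and Cd163 by 0.30 and 0.59. Fcer1g was nearly equal at 0.45 and 0.48. In the high set Get1 -/- replicate 1 was the only array of its genotype, and in the low set Get1 +/+ replicate 3 was, so a set and a mouse cannot be told apart. With the set as a block the median was 0.36, 10 genes were higher and 1 lower at an unadjusted p under 0.05, where 9.34% of all genes were called in either direction, and 0 passed after adjustment (limma).

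**Figure D4:**
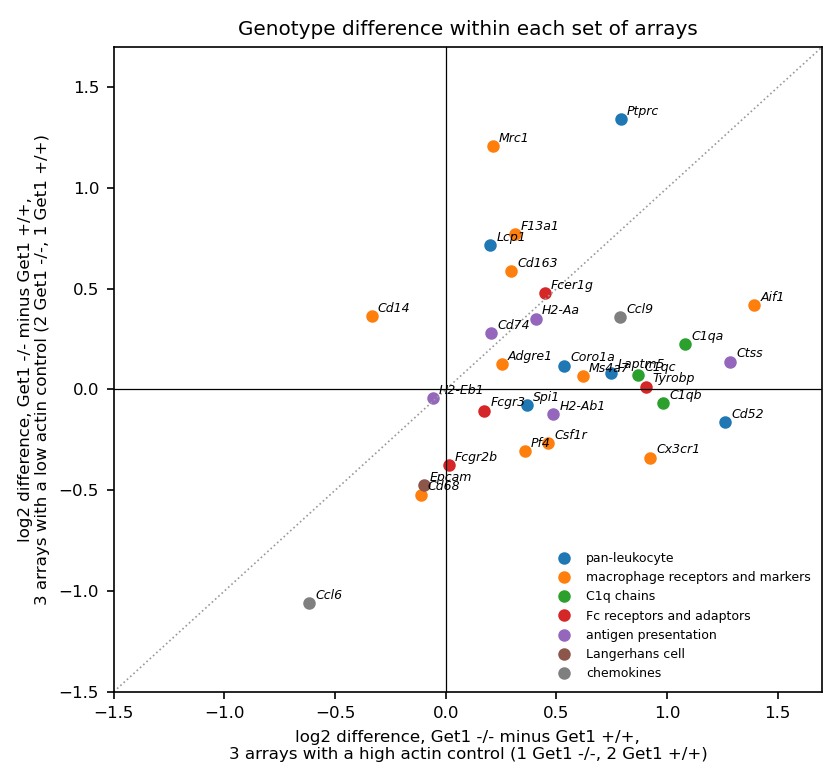
Log2 difference between genotypes of the 32 tested genes within the 3 arrays of high beta-actin (horizontal axis) and within the 3 of low beta-actin (vertical axis), with the dotted line marking equal values. The C1q chains lie at 0.87 to 1.08 across and at -0.07 to 0.23 upward, whereas Ptprc and Mrc1 lie above the line.

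Other genes of the same cells were read from lists beside the group. Of 37 other macrophage genes tested 22 were higher and 15 lower (median log2 change 0.12), 0 passed an adjusted p under 0.05 and 4 had an unadjusted p under 0.05, all higher, beside 8.18% of all genes. The stricter filter on low signal gave a median of 0.049, and leaving out Get1 +/+ replicate 2 gave 0.069. Ms4a6d, a membrane protein of the Ms4a family like Ms4a7, read 291, 245 and 248 in Get1 +/+ and 553, 459 and 423 in Get1 -/- skin. It had no overlap and a log2 change of 0.87 ± 0.19 (adjusted p = 0.299, limma). Clec4n, the lectin receptor dectin-2 (0.82 ± 0.26), and Cybb, the catalytic chain of the phagocyte oxidase (0.72 ± 0.27), did not overlap either.

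Of the other pan-leukocyte genes 21 of 27 were higher (median 0.29, or 0.14 with the stricter filter). With limma 0 passed, and at an unadjusted p under 0.05 there were 2 higher and 1 lower, or 11.1%, near the 8.18% of all genes. Cd48 (0.58 ± 0.24) and Nckap1l, the blood cell form of a Rac effector subunit (0.48 ± 0.20), were higher without overlap. Runx1, a blood cell factor also expressed in hair follicles, read 544 to 627 in Get1 +/+ and 279 to 496 in Get1 -/- skin (-0.60 ± 0.22). On a list of growth factors and receptors drawn up for macrophages 9 of 11 were higher (median 0.19). With limma 0 passed and 1 had an unadjusted p under 0.05. It was Kitl (0.74 ± 0.29, with overlap), the ligand of Kit, a receptor counted here among the mast cell genes and not the macrophage genes. This 9.09% also lay near the 8.18% of all genes.

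Lists of neighbouring pathways had medians near 0, apart from the other chemokines and receptors. Other class II and dendritic cell genes had a median of -0.036 (7 of 15 higher), with Ifi30, a lysosomal thiol reductase, at -0.39 ± 0.18, the transcription factor gene Creb1 at 0.58 ± 0.27 and the peptide loading chain H2-DMa at -0.37 ± 0.28. MHC class I genes had a median of 0.03 (10 of 15 higher), where B2m, the light chain, read 6008 ± 774 and 7361 ± 1848. Other complement genes had a median of -0.044 (4 of 11 higher), and the difference between this list and the C1q chains was not tested. Other chemokines and receptors had a median of -0.15 (4 of 10 higher), which was -0.025 and -0.027 without Get1 +/+ replicate 2 and 3. On these 4 lists 0 genes passed with limma, and 0 had an unadjusted p under 0.05.

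Lymphoid genes other than the Cd3 chains were mostly too dim to test. Of 33 on the array 6 passed the filter and 0 of them were higher in Get1 -/- skin (median -0.19, or -0.022 with no filter). Blnk, a B cell adaptor, read 495, 823 and 709 against 161, 498 and 293, a log2 change of -1.21 ± 0.37 (adjusted p = 0.538, limma). Zap70 (-0.69 ± 0.42) and Gata3, which is also a factor of hair follicle and epidermis (-0.34 ± 0.21), overlapped.

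Lists of other cell types were read as well, and with limma 0 of their genes passed after adjustment. At an unadjusted p under 0.05, 8.18% of all genes were called. Beside this stood 6.25% of the keratinocyte, 8.33% of the muscle and 22.2% of the mast cell genes tested. Of the endothelial, platelet and fibroblast genes 0% were called. Keratinocyte markers were lower for 16 of 16 tested genes (median -0.25, 1 at an unadjusted p under 0.05), and their summed signal was 217874 to 233443 in Get1 +/+ and 177094 to 206392 in Get1 -/- skin. Without Get1 +/+ replicate 2 the median was -0.15, and without Get1 -/- replicate 1 it was -0.16. Skeletal muscle markers were higher for 12 of 12 (median 0.34, 1 at an unadjusted p under 0.05), with sums of 129551 to 194660 and 149676 to 213766. This median rested on single arrays, since leaving out Get1 +/+ replicate 2 gave 0.036 and leaving out Get1 -/- replicate 3 gave 0.16. Array weights gave 0.61. Of 14 neutrophil genes on the array 5 passed the filter (median 2.27, or 0.62 for all 14 with no filter). At an unadjusted p under 0.05 were 3 (limma), beside 8.18% of all genes. They were S100a9 (2.37 ± 0.51), S100a8 (2.27 ± 0.68) and Lcn2 (2.33 ± 0.71), which stressed keratinocytes also make. S100a8 and Lcn2 overlapped between genotypes. Lcn2 averaged 112 in Get1 +/+ skin, under the filter signal of 137, and passed only through its Get1 -/- values. On the high and low actin arrays S100a9 differed by 3.85 and 0.80, S100a8 by 4.09 and 0.19 and Lcn2 by 3.49 and 0.72. Sums over the 14 were 1081 to 3059 in Get1 +/+ and 3431 to 8831 in Get1 -/- skin, with the brightest genes weighing most.

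Endothelial genes were higher for 14 of 17 (median 0.13), with sums of 14381 to 16683 and 15024 to 19011, and 0.014 as the median without Get1 -/- replicate 3. Mast cell genes were higher for 8 of 9 (0.21), with sums over the 13 on the array of 28623 to 44582 and 40266 to 50328 and 2 genes at an unadjusted p under 0.05. Platelet genes were higher for 3 of 4 (sums over the 10 on the array of 1239 to 1409 and 1061 to 1567) and fibroblast genes for 7 of 13 (0.0018, sums 174618 to 217258 and 184935 to 215936). The 2 erythroid genes that passed changed by 0.35 (Slc4a1) and -0.047 (Alas2). The part of these shifts in the leukocyte values was not tested. The summed signal of all 38 leukocyte genes, the 6 below the filter included, was 32667 to 40449 in Get1 +/+ and 43077 to 48041 in Get1 -/- skin, without overlap. Its brightest genes weigh most in it. Of these F13a1 separated the genotypes, and Csf1r, Pf4 and Mrc1 overlapped. Sums of the keratinocyte genes (lower in Get1 -/- skin) and of the neutrophil genes did not overlap either. How often sums of other genes separate was not tested.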

How the data were processed

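Total RNA of back skin was labelled with biotin and hybridised to 6 oligonucleotide arrays, 1 per mouse, per the labels' protocols. The deposited values are linear signal intensities, made with MAS5 per the submitters' processing notes (version not given in the sources used here). Each array had a 2% trimmed mean of 500 and was not scaled again. The labels name no litters, so p-values measure the spread between these samples only, which may be partly technical.

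Intensities were turned into log2 (the deposited table holds no log2 values), 64 control probe sets were left out, and 22519 of 45037 probe sets with a mean log2 at or above the median were kept. Of the 45037, 34945 carried 1 symbol in the platform annotation, 932 several and 9160 none. Entrez identifiers of 99.4% were found in RefSeq, which changed 0 symbols. A gene was its brightest kept probe set. The test was limma's moderated one (version 3.58.1, R 4.3.3, eBayes with trend, two-sided, Benjamini-Hochberg over 11387 genes), tested on simulated data first.

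The group of genes, its roles, the 16 lists beside it and the alternatives were chosen with earlier results of these data known. Named were all 38 genes, Grhl3, 4 tissue markers and up to 3 genes per list with the smallest p. Some of those were left out of the text where the list's count says enough. The actin sets were known from earlier results too.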

Additional observations from a re-analysis of the deposited data

How the results depend on the processing

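Under 16 alternatives (scaling, filter, offset, prior, array weights, 2 blocks, mean of probe sets, 6 arrays left out) the median log2 change of the leukocyte genes stayed between 0.30 and 0.41. With 1 array left out it ran from 0.30 (without Get1 -/- replicate 1) to 0.41. The count past an adjusted p under 0.05 was 0 in 15 alternatives, and 0 to 1 with an array left out, Ptprc being the 1 without Get1 +/+ replicate 1. The count at an unadjusted p under 0.05 ran from 6 (without Get1 -/- replicate 1) to 13 with an array left out. It was 7 (6 higher and 1 lower) without Get1 +/+ replicate 2 and 8 without Get1 -/- replicate 3, where 4.20% and 5.05% of all genes were called, and 6 stood against 5.38%. It was 10 (9 higher and 1 lower) without Get1 +/+ replicate 1, against 16.9% of all genes, and 16 with array weights, against 13.9%. With all arrays the count without overlap was 12 in the main comparison and 11 with quantile normalization, against 12% and 11.9% of all genes. Median centring gave 10, against 9.84%, and the stricter filter gave 10 of 23, against 11.6%. With an array left out the count without overlap ran from 14 to 21, and fewer arrays overlap less by construction. It was 21 without Get1 +/+ replicate 3, against 20.5% of all genes, 14 without Get1 -/- replicate 1, against 20%, and 15 without Get1 +/+ replicate 1, against 34.5%.

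Over all genes the count past the threshold was 10 with median centring, 8 with array weights and 44 with the replicate block, and 3 to 122 with an array left out (122 without Get1 +/+ replicate 1, 3 without Get1 +/+ replicate 2 or 3). With the replicate block 14 leukocyte genes were higher and 1 lower at an unadjusted p under 0.05, where 11.1% of all genes were called, and 0 passed. The cause was not tested. The labels state no shared litter or day, and deviations of same-numbered mice from their genotype means correlated at -0.02, 0.36 and -0.025 over genes (0.133, 0.26 and 0.14 over kept probe sets), so the answer depended on the table. The comparison was made on genes and without pairs, and overlap was read without pairs too. Over genes 2 of 6 samples correlated best with their own number, and over kept probe sets 6 of 6, a hint from the data and not from the design.

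Of 503 values of single leukocyte genes 488 kept their sign and side of the threshold and 14 turned sign, none of them past the threshold. H2-Eb1 read -0.014 with quantile normalization, -0.071 with array weights, -0.051 with the actin block, and -0.053 and -0.15 without Get1 +/+ replicate 1 and Get1 -/- replicate 2. Cd68 was 0.037 with array weights. Cd14 was 0.016 with the actin block, and 0.54 and 0.068 without Get1 +/+ replicate 2 and Get1 -/- replicate 3. Pf4 was -0.074 and -0.015 without Get1 +/+ replicate 2 and Get1 -/- replicate 1, and H2-Ab1 was -0.035 without the former. The mean of probe sets gave -0.11 for Laptm5 and 0.24 for Fcgr2b. With an array left out, values ran from -0.15 to 0.10 for H2-Eb1, from -0.46 to 0.54 for Cd14, from -0.074 to 0.21 for Pf4 and from -0.035 to 0.35 for H2-Ab1. Of 318 list medians 10 turned sign. The class II and dendritic cell list read 0.00094 with array weights, 0.022 with the mean of probe sets and -0.056 to 0.045 with an array left out. The ranges with an array left out were -0.12 to 0.13 for MHC class I, -0.032 to 0.26 for platelet genes and -0.094 to 0.041 for fibroblast genes, and complement genes ran from -0.12 to 0.037. Platelet genes read -0.11 with no filter. Low signals of Cd207, Cd3e, Cd3g, Ccl2, Itgam and Itgb2 allow no statement on these genes.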
